A study of Mus musculus with 6 samples.

Results

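Class I regions carry both OCT4 and NANOG in embryonic stem cells (ESCs) sorted as Esrrb-GFP high and neither factor in the Esrrb-GFP negative fraction, and 475 of the 2034 Class I regions had already lost their OCT4 call in Esrrb-GFP medium cells. They are 475 of 23767 regions bound in at least 1 library. These early OCT4-loss regions were chosen by exact match of intervals between the lists of bound regions. An interval had to be present for OCT4 and NANOG in high cells and absent for OCT4 in medium and negative cells and for NANOG in negative cells. NANOG in medium cells was not used, and it was still called at 226 of the 475 regions and no longer called at 249.

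The ChIP-Seq libraries for both factors came from mouse E14Tg2a ESCs of a single reporter line (Esrrb-2a-GFPd-IBIH), in which a destabilised GFP is made from the *Esrrb* alleles, grown in LIF/FCS. All cells of the 6 libraries carry this reporter and were fixed before sorting into Esrrb-GFP high (the top 10%), medium (the 15% immediately above negative) and negative fractions, so the fractions differ in GFP level and in no genotype or treatment. There is 1 library per factor and fraction, each from 3 pooled ChIPs, so no spread between replicates exists and no p-value was computed. The intervals given are 95% intervals over regions (Wilson for a share, Newcombe for a difference of shares, normal for a difference of means) and cover counting error only.

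OCT4 (encoded by *Pou5f1*) is a POU domain factor that all pluripotent cells need, and on many enhancers it binds next to SOX2 at a composite Oct-Sox element. NANOG is a homeodomain factor and ESRRB an orphan nuclear receptor, both of which sustain self-renewal of naive ESCs and are expressed unevenly in LIF/FCS. ESRRB binds as a monomer to an extended nuclear receptor half-site.

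The lists hold positions without signal, so depth is unknown, and the values of regions just inside and just outside the authors' threshold, less than 50% of a region's highest depth-normalized signal, cannot be given. A region without a call may still hold some OCT4.

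Sequences of the early OCT4-loss regions nearest to pluripotency genes come first because these loci are described below, followed by regions shown for their motif matches, which were chosen after the matches were seen. Capitals mark matches to the ESRRB word TCAAGGTCA with at most 1 mismatch, to the octamer ATGCAAAT, or to the Oct-Sox element with at most 2 mismatches, on either strand. The octamer and the Oct-Sox element share letters and can overlap. Each sequence is the plus strand of mm9, the whole region or its central 300 bases.
Prdm14, chr1:13118112-13118391: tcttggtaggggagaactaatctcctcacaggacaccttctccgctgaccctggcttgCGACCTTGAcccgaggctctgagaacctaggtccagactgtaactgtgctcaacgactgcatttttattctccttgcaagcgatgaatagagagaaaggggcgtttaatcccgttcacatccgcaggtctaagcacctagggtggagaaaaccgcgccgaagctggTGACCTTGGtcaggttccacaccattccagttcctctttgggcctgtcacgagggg
Tcfcp2l1, chr1:120539362-120539661: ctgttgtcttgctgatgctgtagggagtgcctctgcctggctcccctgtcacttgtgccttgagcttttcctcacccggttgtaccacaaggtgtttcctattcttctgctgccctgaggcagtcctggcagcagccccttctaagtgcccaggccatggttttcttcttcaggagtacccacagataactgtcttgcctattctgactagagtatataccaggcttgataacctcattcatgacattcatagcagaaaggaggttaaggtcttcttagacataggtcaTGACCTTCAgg
Tet1, chr10:62359652-62359851: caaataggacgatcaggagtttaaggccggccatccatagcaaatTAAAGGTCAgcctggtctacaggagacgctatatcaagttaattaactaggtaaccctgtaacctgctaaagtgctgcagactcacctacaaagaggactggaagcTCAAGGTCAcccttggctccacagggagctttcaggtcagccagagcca
Kdm3a, chr6:71576052-71576291: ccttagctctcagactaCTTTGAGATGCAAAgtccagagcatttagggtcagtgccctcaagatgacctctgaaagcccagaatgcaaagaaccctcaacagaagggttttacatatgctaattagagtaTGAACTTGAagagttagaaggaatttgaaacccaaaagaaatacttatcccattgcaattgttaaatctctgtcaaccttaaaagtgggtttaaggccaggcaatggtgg
Tcf7l2, chr19:55787352-55787431: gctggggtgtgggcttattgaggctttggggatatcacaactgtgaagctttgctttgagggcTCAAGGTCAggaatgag
Cbfa2t2, chr2:154249432-154249571: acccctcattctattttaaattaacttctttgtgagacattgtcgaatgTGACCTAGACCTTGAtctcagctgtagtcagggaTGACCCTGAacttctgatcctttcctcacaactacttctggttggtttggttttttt
Smyd3, chr1:181128972-181129211: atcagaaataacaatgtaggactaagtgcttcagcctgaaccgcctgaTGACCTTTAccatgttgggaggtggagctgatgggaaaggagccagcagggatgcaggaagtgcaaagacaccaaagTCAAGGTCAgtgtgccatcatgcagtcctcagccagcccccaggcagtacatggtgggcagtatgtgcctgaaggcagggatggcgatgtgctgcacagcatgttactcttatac
Paqr3, chr5:97647852-97647971: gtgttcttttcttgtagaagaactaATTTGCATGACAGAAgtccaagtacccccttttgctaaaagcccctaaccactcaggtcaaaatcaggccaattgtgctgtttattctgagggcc
The names are those of the nearest protein-coding gene. The *Prdm14*, *Tet1* and *Smyd3* regions held 2 ESRRB matches each and the *Cbfa2t2* region 3, which partly overlap. Exact ESRRB words occurred in the *Tet1*, *Tcf7l2* and *Smyd3* regions. In the *Paqr3* region an octamer overlapped an Oct-Sox match. The *Cbfa2t2* region lies 12646 bp from the gene, the *Tcf7l2* region 28869 bp and the *Paqr3* region 107237 bp, whereas the *Smyd3* region is intronic. NANOG was still called in medium cells at 5 of the 8 regions, those at *Tet1*, *Kdm3a*, *Tcf7l2*, *Cbfa2t2* and *Paqr3*.

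The calls in medium cells divide Class I regions by the factors still called. The order in which factors left a region was not tested, because each fraction is a sorted snapshot. The paper also reports that high and medium cells converted into each other after replating. Of the 2034 regions, 842 kept both factors in medium cells, 717 kept OCT4 without NANOG, 226 kept NANOG without OCT4 and 249 kept neither. Early OCT4 loss was therefore 23.4% of Class I, beside 21.3% of all OCT4 regions of high cells, and nothing is read from this count because the rule fixed it. A missing call in medium cells was not always followed by a missing call in negative cells. Among OCT4 regions without NANOG that were called in high and negative cells, 1011 had no call in medium cells and 4193 had one. Of 1565 Class II regions, 104 had none, 6.65%. NANOG remained at 47.6% (43.1 to 52.1) of early OCT4-loss regions, compared with 54.0% (51.5 to 56.5) of those Class I regions that kept OCT4, a difference of -6.43 percentage points (-11.5 to -1.30). The share was next to the 47.7% of all NANOG regions of high cells that were called in medium. Another of the 475 early OCT4-loss regions lay within 10 kb at 4 regions and within 50 kb at 16, and no expected number was computed.

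**Figure D1:**
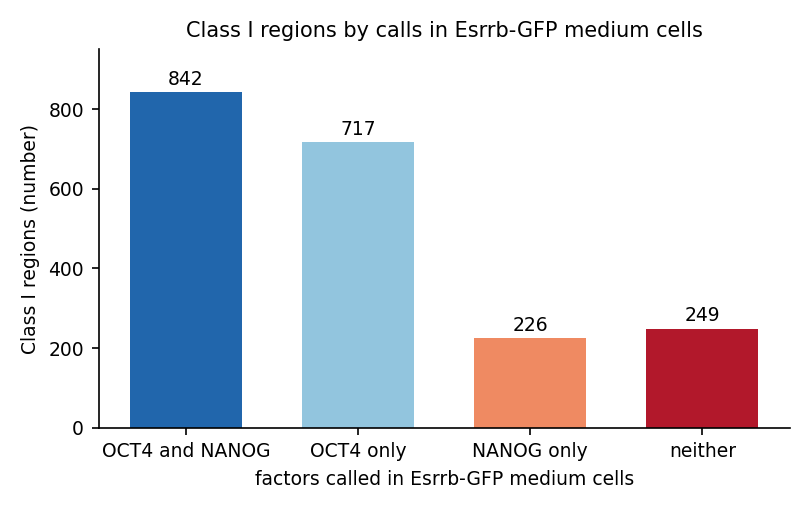
Bars give the number of Class I regions (y axis) by the factors called in Esrrb-GFP medium cells (x axis). The early OCT4-loss regions are the right-hand bars, 226 with NANOG only and 249 with neither factor, against 842 and 717 regions that kept OCT4.

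Early OCT4-loss regions were poorer in G and C than Class I regions that kept OCT4. In the 200 bp around the centre the mean GC content was 45.0% (SD 4.97, n = 475 regions) against 47.0% (SD 4.81, n = 1559 regions), a difference of -2.00 points (-2.51 to -1.49). CpG dinucleotides, the sites of DNA methylation, numbered 1.55 per window (SD 1.52) against 1.93 (SD 1.80), a difference of -0.388 (-0.551 to -0.225), and 27.8% of early OCT4-loss windows against 22.4% held none. Regions with and without NANOG in medium cells had mean GC contents of 45.2% and 44.8% (difference 0.423 points, -0.472 to 1.32). Each was below its own counterpart. With NANOG in medium cells, the difference from Class I regions with both factors was -1.92 points (-2.65 to -1.19), and without NANOG the difference from regions with OCT4 only was -2.04 points (-2.74 to -1.33).

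**Figure D2:**
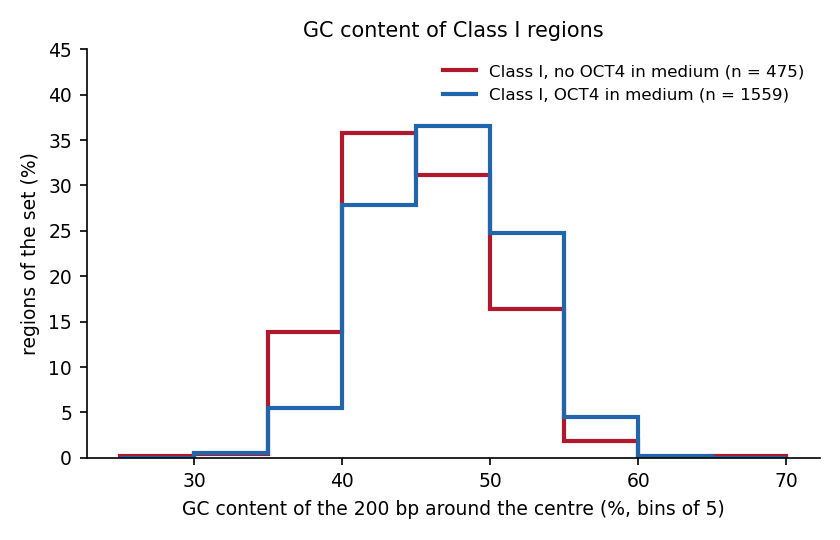
The x axis gives GC content in bins of 5 percentage points and the y axis the percentage of regions, for 475 Class I regions without OCT4 in medium cells (red) and 1559 with it (blue). The red outline is shifted to lower GC, with 13.9% of regions between 35 and 40% GC against 5.45% of the blue set.

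Lower GC was also found outside Class I and away from the region centres. At Class II regions, which are co-bound in high cells and keep OCT4 alone in negative cells, the 104 without OCT4 in medium cells had a mean GC of 45.2% and the 1461 with OCT4 47.3%, a difference of -2.04 points (-2.99 to -1.09). At OCT4 regions without NANOG the difference was -1.13 points (-1.49 to -0.776) where OCT4 was lost in negative cells and -0.988 points (-1.34 to -0.636) where it was present there. Windows 10 kb further along the chromosome from Class I centres had mean GC contents of 42.1% for early OCT4-loss regions and 44.0% for the others, a difference of -1.84 points (-2.64 to -1.04). The OCT4 library of medium cells as a whole called regions of higher GC, 48.9% on average against 48.1% in high and 48.6% in negative cells, and the 4672 OCT4 regions called in medium but not in high cells had a mean of 50.2%. The part of library base composition in the difference at Class I was not tested.

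**Figure D3:**
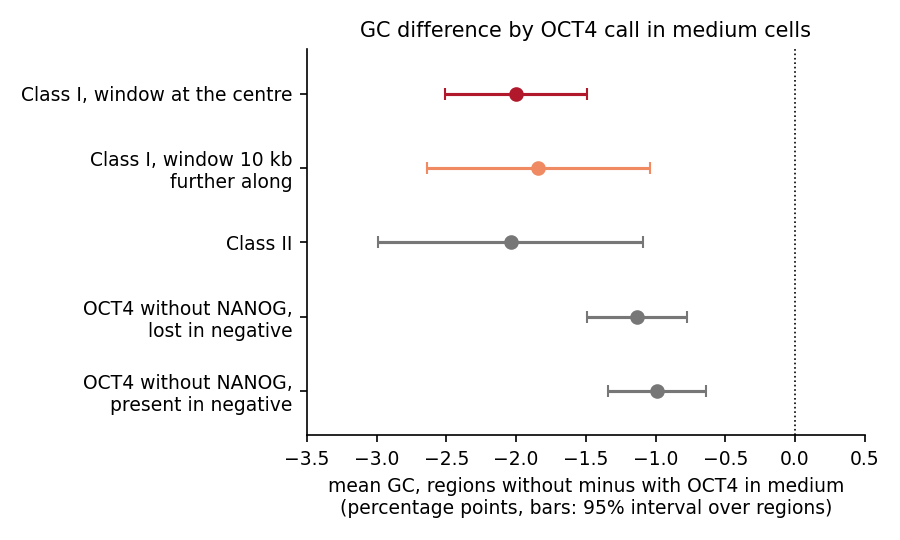
Points give the mean GC content of regions without OCT4 in medium cells minus that of regions with it (x axis, percentage points), with 95% intervals over regions, for 5 sets of windows (y axis). All 5 lie below 0, from -2.04 at Class II to -0.988 at OCT4 regions without NANOG that persist in negative cells.

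ESRRB matches with at most 1 mismatch were less frequent at early OCT4-loss regions, and their share was lowest where NANOG had been lost too. Of the 475 regions, 68 held an ESRRB match within 100 bp of the centre, 14.3% (11.5 to 17.8), against 19.7% (17.8 to 21.7) of Class I regions with OCT4 in medium cells, a difference of -5.38 points (-8.90 to -1.45). With NANOG kept in medium cells the share was 18.6% (42 of 226), and with NANOG lost 10.4% (26 of 249), 8.14 points apart (1.81 to 14.6). The second share was next to the 11.2% of all 23767 regions and the 11.8% of Class II. Compared with counterparts of the same NANOG status, the difference was -2.20 points (-7.56 to 3.96) where NANOG was kept and -7.97 points (-12.4 to -2.81) where it was lost.

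The direction depended on how strictly the word was matched. Exact ESRRB words occurred in 18 early OCT4-loss regions, 3.79%, and in 39 of the others, 2.50%, a difference of 1.29 points (-0.359 to 3.51), opposite in sign to that with 1 mismatch allowed. Of those 18 regions, 13 had kept NANOG in medium cells. Below and above the median GC content of co-bound regions, 46.5%, the difference with 1 mismatch was -2.32 points (-6.66 to 2.61) and -6.69 points (-12.3 to 0.0252), and in windows reaching 50 or 250 bp from the centre the values were -2.54 points (-4.93 to 0.337) and -2.58 points (-7.17 to 2.25), all of them with intervals that included 0. The 68 regions held 80 matches in 19 different spellings, led by TCAAGGTCA with 19 and GCAAGGTCA with 13, and their median distance from the centre was 55 bp. In windows of the same length 10 kb further along, 9.07% of early OCT4-loss regions held a match, against 6.84% over all regions. This share was not computed for Class I regions with OCT4. The word read backwards without complementing it was found at 5.68% of early OCT4-loss regions and 5.58% of Class I regions with OCT4. Outside Class I, regions without OCT4 in medium cells also had fewer ESRRB matches than regions with it where OCT4 was bound without NANOG and present in negative cells, 4.45% against 7.11% (difference -2.66 points, -4.03 to -1.03). At Class II the difference was -4.42 points (-8.56 to 2.52), and at OCT4 regions without NANOG that were lost in negative cells -1.03 points (-3.22 to 1.33).

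OCT4's own sites were also less frequent. An octamer or Oct-Sox match was present at 95 of 475 early OCT4-loss regions, 20.0% (16.6 to 23.8), against 25.3% (23.2 to 27.5) of Class I regions with OCT4 in medium cells, a difference of -5.27 points (-9.29 to -0.906). Class II regions had 34.1% (31.8 to 36.4), 14.1 points above the early OCT4-loss regions (difference -14.1, -18.2 to -9.59). The share over all 23767 regions was 23.1%. Regions with and without NANOG in medium cells had 20.4% and 19.7%. The exact octamer alone was found at 25 early OCT4-loss regions, 5.26% against 7.38% of Class I regions with OCT4, a difference of -2.11 points (-4.30 to 0.560), and the Oct-Sox element at 81 regions, 17.1% against 19.8% (difference -2.70, -6.43 to 1.41). Windows 10 kb further along from early OCT4-loss regions held an octamer or Oct-Sox match at 2.95%. The difference from Class I regions with OCT4 was -3.45 points (-7.95 to 1.31) with 250 bp either side, and its interval also included 0 in wide and in narrow regions taken apart, at -5.05 and -5.96 points. A lower share was again not limited to Class I. At OCT4 regions without NANOG that were present in negative cells, 30.8% without and 35.9% with OCT4 in medium cells held a match (difference -5.11 points, -8.24 to -1.86). At Class II the difference was -4.55 points (-12.9 to 5.13), and at OCT4 regions without NANOG that were lost in negative cells -2.11 points (-5.13 to 1.03).

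Taking both kinds of site, 322 of the 475 early OCT4-loss regions, 67.8%, held neither an ESRRB nor an octamer or Oct-Sox match, compared with 58.8% of Class I regions with OCT4 in medium cells. The share with at least 1 such match was 32.2%, next to the 32.3% of all 23767 regions, and 41.2% in Class I regions with OCT4. The early OCT4-loss regions were thus at the level of the whole series. Both kinds were present at 10 regions. A match of either kind was found at 36.7% of regions with NANOG in medium cells and 28.1% of those without, a difference of 8.61 points (0.200 to 16.9).

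Words of other factors were scanned in the same windows. TAATGG, a word bound by NANOG's homeodomain, was present at 14.1% (11.3 to 17.5) of early OCT4-loss regions, 11.9% of Class I regions with OCT4 in medium cells (difference 2.17 points, -1.14 to 5.91) and 10.2% of Class II (difference 3.88 points, 0.620 to 7.58). Words of the KLF factors GGGTGTGG and GGGCGTGG, bound by KLF2 and KLF4 of the naive network, were found at 13 regions, 2.74% against 4.49% (difference -1.75, -3.36 to 0.348), and with 1 mismatch allowed at 33.3% against 40.9% (difference -7.60, -12.4 to -2.62). These words read backwards, a control for base composition, were found at 1.05% against 2.31% (difference -1.26, -2.32 to 0.270), and the difference from Class II was -1.95 points (-3.09 to -0.379). For TTCNNNGAA, the STAT site through which LIF acts, the shares were 6.53% and 6.48%. The TFCP2L1 word, CCNG and a second CCNG with 6 bases of any kind between them, was found at 8.84% and 10.3%, and TAATCC, bound by OTX factors, at 7.58% and 8.47%. The intervals of these last 3 differences included 0. In all, 25 measures were compared between the early OCT4-loss regions and Class I regions with OCT4 in medium cells, with intervals not adjusted for their number, and 7 intervals did not include 0.

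**Figure D4:**
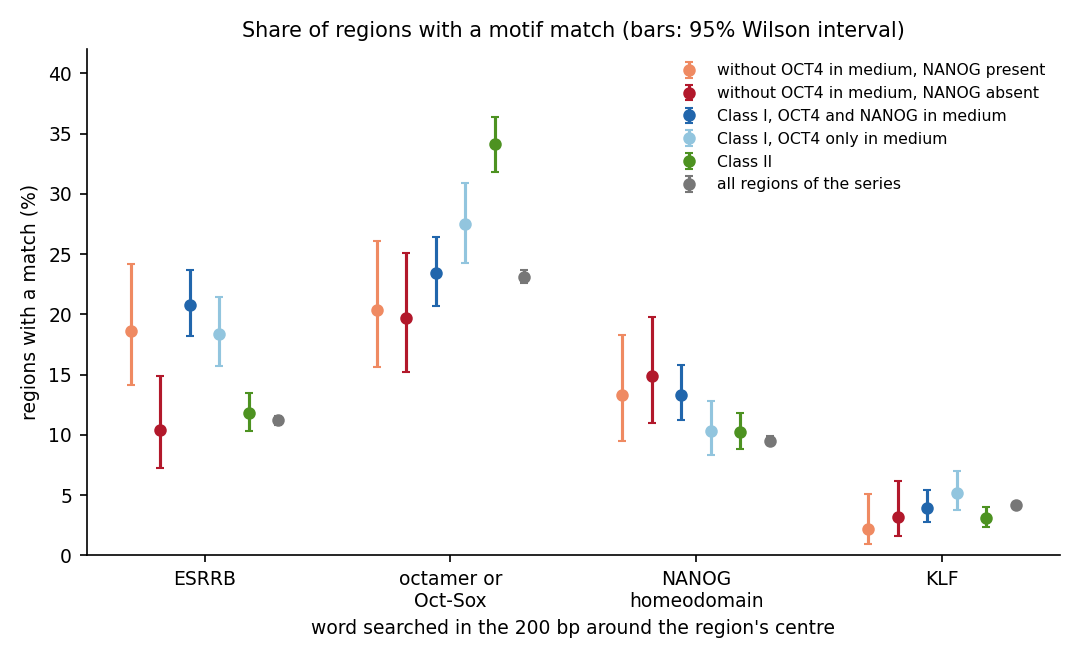
The y axis gives the percentage of regions with a match in the 200 bp around the centre and the x axis the word, with 95% Wilson intervals, for early OCT4-loss regions with (orange) and without NANOG (red) in medium cells and 4 other sets. ESRRB matches were present at 18.6% and 10.4% of the orange and red sets, and octamer or Oct-Sox matches at 20.4% and 19.7%, below the 34.1% of Class II.

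Early OCT4-loss regions were mostly distal, as were the regions of the series as a whole. Their centres lay between genes at 263 regions, 55.4%, in introns at 200, 42.1%, and in exons at 12, 2.53%, against 58.5%, 39.1% and 2.44% of Class I regions with OCT4 in medium cells. Of all 23767 regions the shares were 56.3%, 39.9% and 3.86%. A transcription start site lay within 1 kb at 22 regions, 4.63% against 5.71% (difference -1.08 points, -3.08 to 1.43), and within 5 kb at 18.9% against 21.5%. For all regions these shares were 8.90% and 25.7%. The median distance to a start site was 20853 bp, ranging from 21 to 539164 bp. Start sites are those of any annotated transcript, coding or not. The regions below carry the name of the nearest protein-coding gene, and the start site measured may belong to another gene. Of the 12 exonic regions, 10 had lost NANOG in medium cells (4.02% of those without NANOG against 0.885% with it). Among the regions nearest to a start site, named after their values were seen, were those at *Zfp281* (36 bp), which encodes a zinc finger factor of ESCs, *Spic* (102 bp), which encodes an ETS factor, and *Pou2f3* (150 bp), which encodes a POU factor related to OCT4. Regions at *Map2k6* (21 bp), *Tet1* (30 bp), *Aanat* (106 bp), *Rdx* (123 bp) and *Jakmip1* (130 bp) also lay nearer to a start site than that of *Pou2f3*. The *Spic* and *Pou2f3* regions held octamer matches, whereas those of *Map2k6*, *Rdx*, *Jakmip1* and *Zfp281* held none of the scanned words. NANOG was kept in medium cells at *Zfp281* and *Spic*.

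In medium cells OCT4 was called at another region within 10 kb of 157 early OCT4-loss regions, 33.1% (29.0 to 37.4), next to the 34.3% of all 23767 regions and the 35.3% of Class I regions that kept OCT4 (difference from the latter -2.29 points, -7.03 to 2.65). Within 50 kb the shares were 57.5% and 64.3% (difference -6.80 points, -11.9 to -1.81). The share within 10 kb was 35.8% where NANOG was kept and 30.5% where it was lost (difference 5.32 points, -3.13 to 13.7). NANOG was called in medium cells at another region within 10 kb of 15.4% of early OCT4-loss regions and 14.1% of all regions.

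The 475 regions had a median width of 160 bp, quartiles of 100 and 240 bp and a range from 40 to 620 bp, against medians of 180 bp for Class I regions with OCT4 in medium cells and 80 bp for all regions. Width comes from merging the peaks of all libraries and so is tied to the rule. They were found on all autosomes and on the X chromosome, from 16.2% of the Class I regions of chromosome 11 to 32.1% (17 of 53) on the X chromosome. The X chromosome held 3.58% of them and 2.31% of Class I regions with OCT4 in medium cells. The interval of this difference included 0 (1.27 points, -0.322 to 3.44). The widest regions were at *Trim24* (620 bp, 141320 bp from the gene), a transcriptional coregulator, *Slc6a6* (560 bp, intronic), the taurine transporter, and *Fam124b*, *Manba* and *Fgr* (500 bp each). NANOG was kept in medium cells at those of *Slc6a6* and *Manba*.

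Few genes had more than 1 early OCT4-loss region. A protein-coding gene lay within 20 kb of 307 regions and none of 168. These regions had 387 protein-coding genes within 20 kb. Of these, 81, 20.9% (17.2 to 25.3), also had a Class I region that kept OCT4 in medium cells, against 5.61% of all protein-coding genes. A Class II region was near 67, 17.3% (13.9 to 21.4), against 5.02% of all protein-coding genes. The other 261 had neither, and the share of all genes with neither was not computed. At 11 genes there were 2 such regions, the highest number found, and the 10 with most of them inside the gene are described. At *Tet1*, *Immp2l*, *Arid1b*, *Agk*, *Sox5*, *Zswim6*, *Frmd5*, *Rhpn2* and *Tmc5* 1 of the pair had kept NANOG in medium cells and the other had lost it, whereas at *Phactr1* both had lost it. At *Arid1b*, which encodes a subunit of BAF chromatin remodelling complexes, the pair lay 328520 and 330420 bp from the gene's start, in introns, with NANOG kept at the second. At *Agk*, an acylglycerol kinase of mitochondria, and at *Zswim6* no region within 20 kb was called for OCT4 in medium cells. *Sox5*, a SoxD factor, had 12 regions within 20 kb, 7 of them called for OCT4 in high and 6 in medium cells, of which 3 were not called in high cells.

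Of the 142 listed pluripotency, signalling, chromatin and lineage genes found in the annotation, 8 had an early OCT4-loss region within 20 kb, 5.63% against 1.73% of all protein-coding genes. Class I regions that kept OCT4 in medium cells were near 37, 26.1% against 5.61% of protein-coding genes, and Class II regions near 40, 28.2% against 5.02%. By list, 2 of 18 naive genes had an early OCT4-loss region (*Prdm14*, *Tcfcp2l1*), 2 of 18 FGF/ERK genes (*Spry4*, *Etv5*) and 5 of 21 genes of DNA methylation and chromatin (*Tet1*, *Kdm3a*, *Eed*, *Rybp* and again *Prdm14*). None was found at 15 core and general pluripotency genes, 14 formative and primed genes, 12 LIF/STAT3 genes, 14 WNT genes, 19 NODAL/BMP genes or 19 lineage genes. At 50 kb 12 listed genes had one, *Nanog*, *Dppa3*, *Il6st* and *Tcf7l2* being added.

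*Prdm14* encodes a PR domain factor of naive ESCs and germ cells that restrains DNA methylation and FGF signalling. Its early OCT4-loss region was upstream of the gene, 1008 bp from the start, 280 bp wide with a GC content of 53.5%, and neither factor was called in medium cells. A region 5058 bp upstream kept both factors in medium cells and lost both in negative cells. Between them, 1418 bp upstream, OCT4 was called in negative cells only. Merging within 100 bp joins this region to the early OCT4-loss region. The joined region has OCT4 in negative cells and so counts as Class II. With exact intervals, OCT4 was thus not called in medium cells at the proximal region and was called at the distal one.

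*Tcfcp2l1* encodes a factor downstream of LIF. The early OCT4-loss region, 360 bp in an intron 14990 bp from the start, had neither factor in medium cells. Its ESRRB match, printed above, lies outside the 200 bp window. At the adjacent region, 14540 bp from the start, NANOG without OCT4 was called in high and medium cells, and the window held an ESRRB match. In medium cells OCT4 was called 2260 bp upstream, where it was also called in high cells, and 20230 bp downstream of the start, where it was not. The gene therefore had 2 OCT4 regions in high and 2 in medium cells, of which only the upstream one was shared.

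*Tet1* encodes a 5-methylcytosine dioxygenase and was the one listed gene with 2 early OCT4-loss regions. The first, 2114 bp from the start in an intron, kept NANOG in medium cells. The other, 80 bp wide and 5634 bp from the start, had its centre in an exon 30 bp from an annotated transcript start and lost both factors. A separate 40 bp region beside it, 5514 bp from the start, was called for OCT4 in high and medium cells. Merging within 100 bp joins these neighbours, and the joined region has OCT4 in medium cells. The second early OCT4-loss region therefore depends on exact interval borders. OCT4 was called within 20 kb of the gene at 6 regions in high and 8 in medium cells, of which 4 in medium cells were not called in high cells. NANOG was called at 3 regions in high cells and at 1 in medium cells, the first early OCT4-loss region.

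*Kdm3a* encodes a histone H3K9 demethylase. Its early OCT4-loss region lies in an intron 6727 bp from the start, kept NANOG in medium cells and had a GC content of 39.0%. An ESRRB match lay in the window and an Oct-Sox match at the region's edge. OCT4 remained in medium cells at 1 other intronic region, 23687 bp from the start, and no region of the gene was called in negative cells.

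The 4 remaining listed genes had 1 early OCT4-loss region each. At *Etv5*, an ETS factor downstream of FGF signalling, it kept NANOG and was 1 of 14 regions within 20 kb, of which OCT4 was called at 8 in high and 9 in medium cells. At *Eed*, a core subunit of PRC2, the intronic region 5181 bp from the start lost both factors, while a region 16729 bp upstream kept both in medium cells and OCT4 in negative cells. At *Rybp*, a subunit of variant PRC1, the intronic region 16433 bp from the start lost both factors and was the one OCT4 region called in high cells, against 2 other regions called in medium cells. At *Spry4*, a feedback inhibitor of ERK signalling, the region lies downstream of the gene on chromosome 18, lost both factors in medium cells and was 1 of 5 OCT4 regions in high cells.

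**Figure D5:**
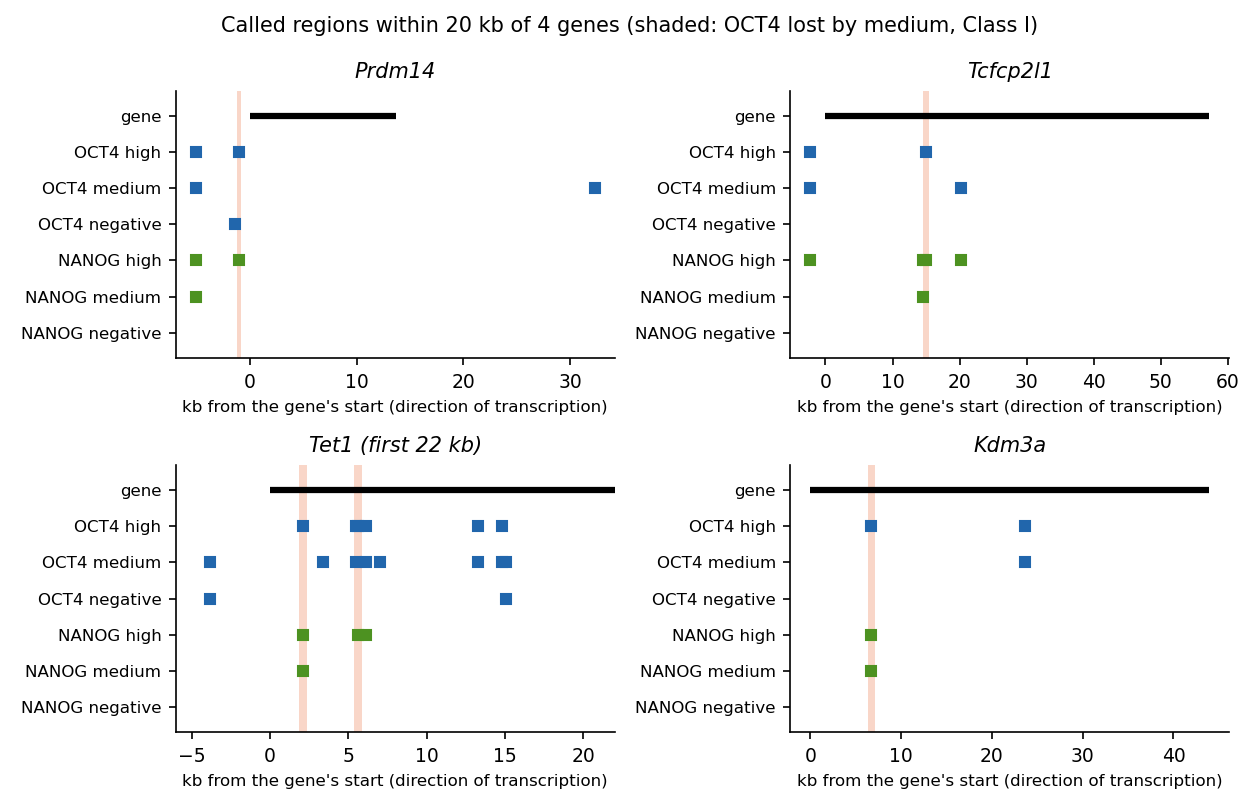
Squares mark called regions within 20 kb of each gene by library (rows) against distance from the gene's start in kb (x axis, in the direction of transcription), with the gene as a black bar, cut at 22 kb for *Tet1*, and early OCT4-loss regions shaded. OCT4 squares in the medium row lie outside the shading at all 4 genes, apart from a close neighbour at *Tet1*. NANOG squares in the medium row lie inside it at *Tet1* and *Kdm3a*. At *Tcfcp2l1* the shading is drawn wider than the region and also covers the NANOG squares of the adjacent region.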

How the data were processed

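OCT4 and NANOG ChIP-Seq libraries of sorted E-GFPd1 ESCs were grouped by the antibody and the fraction that their labels give. The authors used GeneProf, with Bowtie for alignment to mm9 and SISSRs for peaks. They joined peaks that overlapped across datasets, and dropped from a fraction any joined region whose signal, scaled for depth, fell under 50% of its maximum. The deposited lists hold start and end positions, no counts or signal. Versions are not given in the sources used here. The members and gene lists were chosen with earlier results of these data known, so no list or pattern is independent evidence.

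Intervals were matched exactly between lists. Motifs were scanned on both strands within 100 bp of region centres, and genes came from GENCODE for mm9 (37310 genes), within 20 kb of the gene body. Genes named are listed genes with a member, 10 protein-coding genes with 2 members and the nearest gene of the 5 widest members. Genes near start sites or printed sequences, and those reached at 50 kb, were named after their values were seen, outside this rule. Listed genes had 146 symbols, of which 142 were in the annotation. Shares and means have 95% intervals over regions, with no p-value. The GC comparisons outside Class I were added later, with the main values known. Functions were tested on simulated data with planted motifs and classes. Python 3.11.15, numpy 2.4.6, pysam 0.24.0 and matplotlib 3.10.9 were used.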

Additional observations from a re-analysis of the deposited data

How the results depend on the processing

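No paired analysis was possible because only 1 library exists per factor and fraction. The number of early OCT4-loss regions ranged from 407 to 496. The differences in NANOG in medium cells and in GC content kept their direction and intervals without 0 under all alternatives run. That in start sites within 1 kb kept its direction, but its interval included 0 in the main setting and in all alternatives. The ESRRB difference turned to 1.29 points with exact words only. Its interval came to include 0 with 50 bp (-2.54) or 250 bp (-2.58) either side, below the median width of 180 bp (-3.06), and above (-6.69) or below (-2.32) the median GC of 46.5%. That of the octamer or Oct-Sox difference did so with 250 bp either side (-3.45), the other mismatch limits (-3.42), merging within 500 bp (-4.14), at or above (-5.05) and below (-5.96) the median width, and at or above the median GC (-5.94). The KLF interval came to exclude 0 with 250 bp either side (-3.31), in the region itself (-3.19), with 1 mismatch (-7.60) and at or above the median width (-3.00), and that of OCT4 at another region did so within 50 kb (-6.80). Fewer or more genes were near members at 5 kb (243) and 50 kb (637), by construction. The causes were not tested otherwise. GC content in wide and narrow regions, on autosomes and without motif matches was added after seeing the data.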
